A study of Mus musculus with 51 samples.

Results

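The levels of Smchd1, of its binding partner Lrif1, of the 6 canonical Smc genes (Smc1a, Smc2, Smc3, Smc4, Smc5 and Smc6) and of Ctcf were examined in mouse embryonic stem cells (mESCs) that lack the maternal Smchd1 allele. These 9 genes were chosen by name, and all of them were present among the 35591 genes of the count table. Bulk polyA RNA had been sequenced with paired-end reads from 6 male mESC lines kept in 2i + LIF, a medium in which MEK and GSK3 inhibitors and leukaemia inhibitory factor hold the cells in naive pluripotency. The 3 control lines (Smchd1[fl/+], called Smchd1 wt) and the 3 maternally deleted lines (Smchd1[del/+], called Smchd1 matΔ) were all C57BL/6 by Cast F1 cells, each derived from its own E3.5 blastocyst.

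In the Smchd1 matΔ lines, Zp3-Cre, which is active in the growing oocyte, had removed exon 4 from the C57BL/6 allele inherited from the mother. The Cast allele from the father was intact, so these cells are heterozygous, and they descend from an oocyte that had no functional copy of the gene. Smchd1 wt lines carried the unrecombined floxed allele in the same place. The gene counts add both alleles together. In bulk RNA, fewer cells that express a gene and less RNA per cell cannot be told apart.

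SMC (structural maintenance of chromosomes) proteins are long coiled coils that pair at a hinge and use an ATPase head to hold or extrude loops of DNA. SMC1A and SMC3 form the core of cohesin, SMC2 and SMC4 that of condensin, and SMC5 and SMC6 that of a complex that acts in DNA repair and replication. SMCHD1 is an unusual member with an SMC hinge but an ATPase domain of the GHKL type, known for gene silencing on the inactive X chromosome, at imprinted clusters and at Hox genes. LRIF1 binds SMCHD1 and HP1 proteins and links SMCHD1 to heterochromatin, and CTCF is the zinc finger protein at which cohesin loops commonly stop.

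Counts per library totalled between 27526359 and 126716460, and the 9 genes held between 388 counts (Lrif1 in Smchd1 matΔ line 3) and 43688 counts (Smc4 in Smchd1 wt line 2). Values are given as CPM (counts of a gene per 1000000 counts of its library) after TMM scaling, whose factors ranged from 0.949 to 1.03. The 9 pluripotency markers examined were all expressed, with a summed level of 3713 to 4035 CPM in the Smchd1 wt lines and 3903 to 4204 CPM in the Smchd1 matΔ lines. In 2 of them, Klf4 (108 to 126 CPM in Smchd1 wt and 145 to 146 CPM in Smchd1 matΔ lines) and Tbx3 (86.2 to 96.5 CPM and 99.1 to 124 CPM), the Smchd1 matΔ lines lay wholly above the controls, and Klf4 alone had an unadjusted p-value under 0.05 (edgeR, 0.0133, adjusted 0.992). Over all genes tested, 4.70% lay wholly above the controls, and 1.07% were higher with an unadjusted edgeR p-value under 0.05. The summed levels of trophoblast markers (14.5 to 25.9 CPM over all lines), primitive endoderm markers (7.89 to 10.8 CPM), fibroblast markers (1.77 to 2.90 CPM) and 2-cell-like markers (0.0287 to 0.373 CPM) were low in every line and overlapped between genotypes. Those of mesoderm markers (6.19 to 8.04 CPM in Smchd1 wt and 8.94 to 9.01 CPM in Smchd1 matΔ lines) and neural markers (3.06 to 3.95 CPM and 4.22 to 5.40 CPM) were also low, and were higher in each Smchd1 matΔ line than in each control. By single genes, 1 of 2 tested in each of these 2 lists lay wholly above the controls, beside 4.70% of all genes tested. The part of all these markers in the levels of the 9 genes was not tested. Smchd1 matΔ line 3 stood apart from the other lines, and the fold changes of the 9 genes are therefore also given without it.

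The exon that was removed is shown because it defines the 2 genotypes. It is exon 4 of 48 in the principal transcript Smchd1-201 and lies within the coding sequence, on the minus strand of GRCm38 at chr17:71456418-71456500. Its sequence, read from the GENCODE transcript, is printed 5′ to 3′ without capitals.
Smchd1 exon 4: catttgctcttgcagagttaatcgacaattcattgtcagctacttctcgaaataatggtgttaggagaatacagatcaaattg
The exon has 83 bases, which leaves a remainder of 2 after division by 3, so the codons downstream are out of frame when exon 3 is joined to exon 5. It makes up 1.18% of the 7052 bases of the transcript. Counting reads over the whole gene therefore takes little of its signal from the deleted exon itself.

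Smchd1 RNA was lower in each Smchd1 matΔ line than in each Smchd1 wt line. The gene lies on the minus strand at chr17:71344489-71475343. Smchd1 was counted at 107, 124 and 119 CPM in Smchd1 wt lines 1, 2 and 3, and at 63.7, 72.0 and 90.7 CPM in Smchd1 matΔ lines 1, 2 and 3. The groups did not overlap, and Smchd1 matΔ line 3 was the closest to the controls. The means were 117 ± 8.71 CPM (SD, n = 3 lines) in Smchd1 wt and 75.5 ± 13.8 CPM (SD, n = 3 lines) in Smchd1 matΔ mESCs. All lines retained Smchd1 RNA, with 3163 to 7805 counts per library in Smchd1 matΔ.

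The log2 fold change of Smchd1 was -0.63 (SE 0.14, Smchd1 matΔ minus Smchd1 wt), which is 0.646 of the control level with a 95% interval from 0.513 to 0.813. With edgeR's quasi-likelihood test the unadjusted p-value was 0.00231, the 6th lowest of 17696 genes tested, and the Benjamini-Hochberg adjusted p-value was 0.992. The log2 fold change was -0.78 without Smchd1 matΔ line 3 (edgeR adjusted p = 0.823). The difference thus did not pass the adjusted threshold of 0.05, which 0 of the 17696 genes passed. By exact permutation of the lines (two-sided), p was 0.10, and 3 lines per genotype allow no smaller value. When counts were simulated at the depths and dispersions of the 6 lines, edgeR's quasi-likelihood test recovered 12% of 100 genes altered 1.5-fold. Of 100 genes altered 4-fold it recovered 83%. The altered genes were drawn at random from tested genes of all levels, and each gene was simulated independently. These shares are therefore not the rate for a gene at the level of Smchd1.

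**Figure D1:**
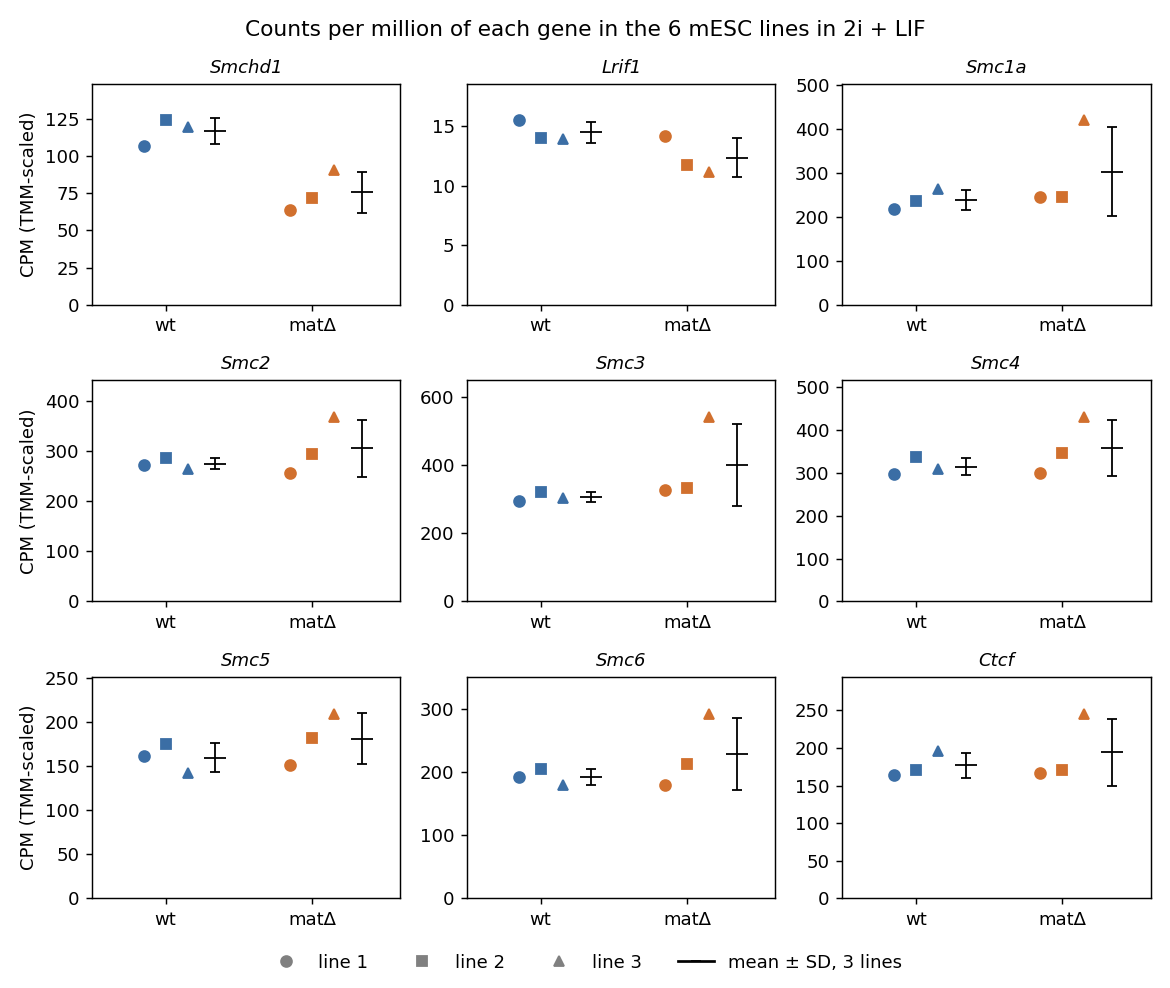
CPM (TMM-scaled, each axis from 0) of the 9 genes in the 3 Smchd1 wt lines (blue) and the 3 Smchd1 matΔ lines (orange), with marker shape giving the line number and black bars the mean ± SD. Smchd1 was at 63.7 to 90.7 CPM in Smchd1 matΔ and 107 to 124 CPM in Smchd1 wt lines, while line 3 of Smchd1 matΔ was the highest of the 6 lines for every Smc gene and for Ctcf.

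Lrif1 was the least expressed of the 9 genes, and its groups overlapped. It lies on the plus strand at chr3:106684987-106736577. Lrif1 was counted at 15.5, 14.0 and 14.0 CPM in the Smchd1 wt lines and at 14.2, 11.8 and 11.1 CPM in the Smchd1 matΔ lines. The first Smchd1 matΔ line lay within the range of the controls and lines 2 and 3 lay below it. The log2 fold change was -0.23 (SE 0.15, 95% interval -0.56 to 0.11, edgeR adjusted p = 0.992), and the exact permutation test gave p = 0.30. Leaving out Smchd1 matΔ line 3 gave a log2 fold change of -0.15. In exons, Lrif1 shares 1064 bases (11.6% of its exon length) with the gene model Gm38253 on the same strand, which held 31 to 171 counts in these lines.

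The cohesin core genes were at similar levels in 5 of the 6 lines and higher in Smchd1 matΔ line 3. Smc3 (plus strand, chr19:53600398-53645833) was counted at 294, 321 and 303 CPM in the Smchd1 wt lines and at 328, 332 and 541 CPM in the Smchd1 matΔ lines. These groups did not overlap, but the lowest Smchd1 matΔ line exceeded the highest control by a small margin only. Smc1a (plus strand, chrX:152016428-152062694) was counted at 219, 235 and 263 CPM in the Smchd1 wt lines and at 244, 245 and 419 CPM in the Smchd1 matΔ lines. Lines 1 and 2 of Smchd1 matΔ lay within the control range. The log2 fold changes were 0.39 for Smc3 (SE 0.20, edgeR unadjusted p = 0.0834, adjusted p = 0.992) and 0.34 for Smc1a (SE 0.21, edgeR unadjusted p = 0.149, adjusted p = 0.992).

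Without Smchd1 matΔ line 3, the log2 fold change of Smc3 was 0.11 and that of Smc1a was 0.04. The ratio of Smc1a to Smc3 CPM was similar in all lines, between 0.732 and 0.868, so both members of the cohesin core were high in the same library.

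The condensin and SMC5/6 core genes overlapped between genotypes. Smc2 (plus strand, chr4:52439243-52488260) was counted at 272, 287 and 265 CPM in the Smchd1 wt lines and at 256, 294 and 368 CPM in the Smchd1 matΔ lines. Smc4 (plus strand, chr3:69004738-69034623) was counted at 297, 336 and 309 CPM in the Smchd1 wt lines and at 301, 346 and 430 CPM in the Smchd1 matΔ lines. In both genes the first Smchd1 matΔ line was within or below the control range and the third was the highest. The ratio of Smc2 to Smc4 CPM kept between 0.852 and 0.916.

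Smc5 (minus strand, chr19:23206451-23273897) was counted at 162, 175 and 142 CPM in the Smchd1 wt lines and at 152, 183 and 210 CPM in the Smchd1 matΔ lines. Smc6 (plus strand, chr12:11265886-11319785) was counted at 193, 206 and 179 CPM in the Smchd1 wt lines and at 180, 214 and 293 CPM in the Smchd1 matΔ lines. Again the third Smchd1 matΔ line was the highest. The log2 fold changes of Smc2, Smc4, Smc5 and Smc6 were 0.16, 0.19, 0.18 and 0.25, each with an edgeR adjusted p-value of 0.992, and without Smchd1 matΔ line 3 they were 0.0039, 0.04, 0.07 and 0.03.

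Ctcf (plus strand, chr8:105636568-105682922) was counted at 164, 171 and 196 CPM in the Smchd1 wt lines and at 166, 170 and 245 CPM in the Smchd1 matΔ lines. For Smc2, Smc4, Smc5 and Smc6 the second Smchd1 matΔ line had also been above the highest control. For Ctcf, as for Smc1a, only the third Smchd1 matΔ line left the control range. The log2 fold change was 0.13 (SE 0.17, 95% interval -0.25 to 0.51, edgeR adjusted p = 0.992), and it was -0.070 without that line. Ctcf exons overlap those of Agrp (114 bases) and Gm5914 (370 bases) on the opposite strand, which held at most 172 and 26 counts. Whether strand was used in counting is not given in the sources used here.

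**Figure D2:**
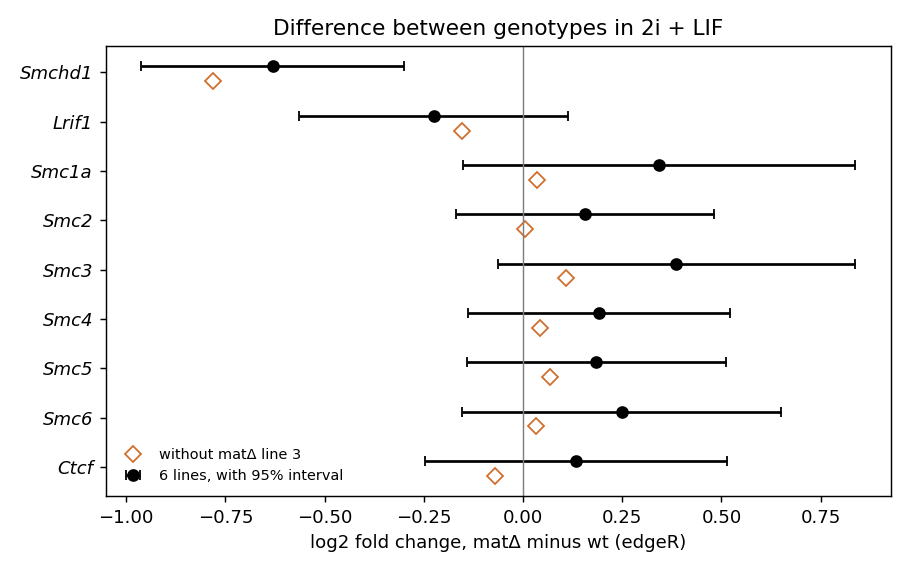
Log2 fold change of each gene (Smchd1 matΔ minus Smchd1 wt, horizontal axis) from edgeR over all 6 lines (black, with 95% interval) and without Smchd1 matΔ line 3 (open orange diamonds, drawn with no interval). Only the interval of Smchd1, from -0.96 to -0.30, lies wholly on one side of 0, and leaving out that line moved the Smc genes and Ctcf to between -0.070 and 0.11.

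Over the 9 genes, 0 passed the adjusted threshold, as did 0% of all genes tested. Of the 9, only Smchd1 had an unadjusted p-value under 0.05 among lower genes (background 1.17% of all genes tested), and 0 had one among higher genes (background 1.07%). Smchd1 was the single gene whose Smchd1 matΔ lines all lay below the controls (background 4.68%) and Smc3 the single gene whose lines all lay above them (background 4.70%). The estimate was negative for 2 genes and positive for 7, with a median log2 fold change of 0.18, beside a median of -0.01 over all genes tested. Without Smchd1 matΔ line 3 it was negative for 3 genes and positive for 6, with a median of 0.033, so the higher median rests on that library.

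Since the Smc genes and Ctcf were together high in Smchd1 matΔ line 3, the libraries were compared by exon length. All 9 genes are long, with between 4860 bases (Ctcf) and 19982 bases (Smchd1) of exon when overlapping exons are merged. Over 10971 genes with a mean of at least 5 CPM, the log2 level in Smchd1 matΔ line 3 was compared with the mean of the other 5 lines, after adding 0.5 CPM. The median difference was -0.23 in the shortest genes (180 to 2794 bases, the first of 4 equal groups by length) and 0.22 in the longest genes (6863 to 123179 bases, the last of the 4 groups). In the third group, which holds genes of 4463 to 6862 bases, the median was 0.057. Among the longest genes the medians of the other 5 lines lay between -0.08 and 0.00. Short genes were thus lower and long genes higher in this library. In each of the other 5 lines the medians ran the other way over a smaller range. They went from 0.098 in the shortest to -0.072 in the longest genes in Smchd1 wt line 1. In Smchd1 matΔ line 1 they went from 0.068 to -0.078. The lines that these 5 were compared with include Smchd1 matΔ line 3.

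On the same scale, the 6 Smc genes had a median difference of 0.52 in Smchd1 matΔ line 3, and Ctcf had 0.50. Of these 7 genes, Ctcf and all Smc genes but Smc6 belong to the third length group, and Smc6 to the longest. Each of the 7 was between 0.37 (Smc5) and 0.80 (Smc1a), above the median of its own group. In the other lines the Smc genes had medians between -0.18 and 0.04. Lrif1, which has 9192 bases of exon, was at -0.30 in Smchd1 matΔ line 3, and Smchd1 was at -0.05. The lines compared with include all controls, so for Smchd1 this value also holds the difference between genotypes. In the other Smchd1 matΔ lines Smchd1 was lower, at -0.66 and -0.45, and Lrif1 was higher, at 0.11 and -0.21. Within its genotype, line 3 was thus the highest for Smchd1 and the lowest for Lrif1. The part that length, or the library, plays in these levels was not tested.

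**Figure D3:**
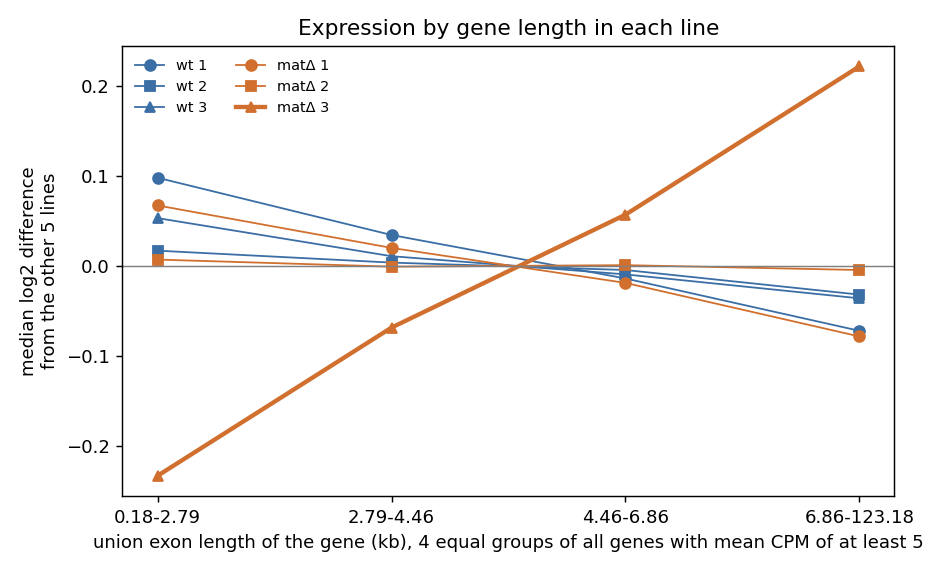
Median log2 difference of each line from the other 5 lines (vertical axis) in 4 equal groups of genes ordered by merged exon length in kilobases (horizontal axis), for Smchd1 wt lines (blue) and Smchd1 matΔ lines (orange). Smchd1 matΔ line 3 (thick line) goes from -0.23 in the shortest group to 0.22 in the longest, and the other 5 lines are between -0.08 and 0.10.

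Set against the geometric mean of the 6 Smc genes in the same library, Smchd1 differed between the genotypes with less scatter. That mean was 233, 253 and 234 CPM in the Smchd1 wt lines and 235, 262 and 361 CPM in the Smchd1 matΔ lines. Smchd1 amounted to 45.8%, 48.9% and 50.9% of it in the Smchd1 wt lines, and to 27.1%, 27.5% and 25.1% in the Smchd1 matΔ lines. On this measure Smchd1 matΔ line 3 was the lowest of the 6 lines, whereas by CPM it was the highest of its group. The ratio of the group means was 0.547. This measure was chosen after the values had been seen and carries no test, and Smchd1 has the largest exon length of the 9 genes.

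Lrif1 amounted to 6.63%, 5.55% and 5.95% of the Smc mean in the Smchd1 wt lines and to 6.04%, 4.50% and 3.08% in the Smchd1 matΔ lines, so its groups overlapped on this measure as well. Ctcf amounted to 67.5% to 83.5% in the Smchd1 wt lines and to 65.1% to 70.8% in the Smchd1 matΔ lines, which also overlap.

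**Figure D4:**
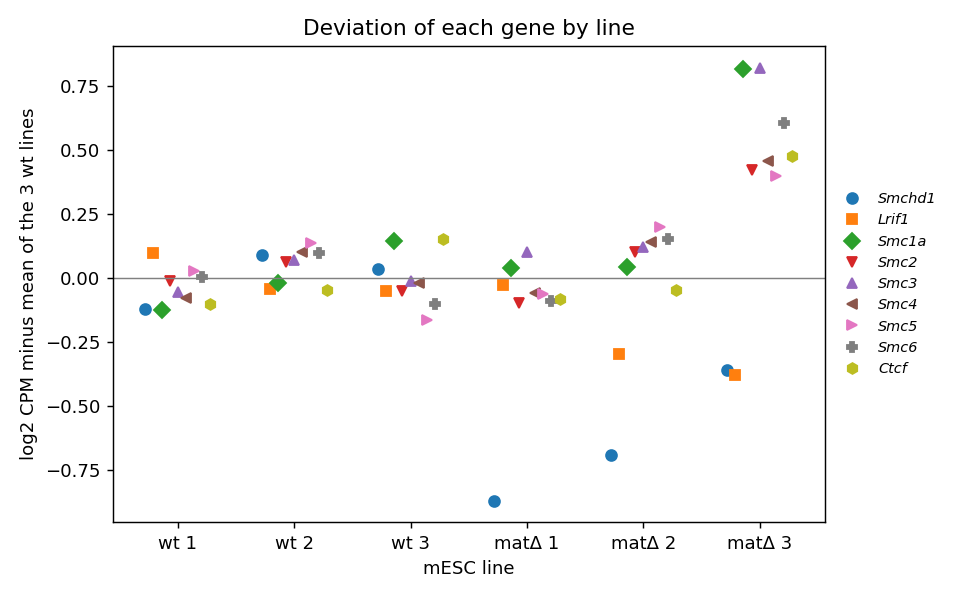
Log2 CPM of each of the 9 genes minus its mean over the 3 Smchd1 wt lines (vertical axis), by mESC line (horizontal axis), with 1 marker shape and colour per gene. Smchd1 is below 0 in all 3 Smchd1 matΔ lines, and in line 3 of Smchd1 matΔ the Smc genes and Ctcf lie above 0 while Smchd1 and Lrif1 lie below it.

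Levels were compared between genes as CPM per kilobase of merged exon, averaged over the 6 lines. The order was Smc4 (64.5 ± 9.55, SD, n = 6 lines), Smc3 (63.7 ± 16.8), Smc2 (53.0 ± 7.39), Smc1a (47.0 ± 12.8), Ctcf (38.2 ± 6.48), Smc5 (25.1 ± 3.57), Smc6 (16.9 ± 3.39), Smchd1 (4.81 ± 1.24) and Lrif1 (1.46 ± 0.18). Neighbours from Smc4 down to Ctcf had overlapping ranges over the lines, as had Smc5 and Smc6. Compared within each library, Smc3 was above Smc2, Smc1a above Ctcf and Smc5 above Smc6 in all 6. Smc4 was above Smc3 in 4 of the 6 and Smc2 above Smc1a in 5. Ctcf was separated from Smc5, Smc6 from Smchd1, and Smchd1 from Lrif1, with no overlap of ranges. Smchd1 and Lrif1 were thus the lowest of the 9 per unit of length in every line. Without Smchd1 matΔ line 3 the order was the same, with means from 60.9 (Smc4) to 1.51 (Lrif1). With the longest annotated transcript in place of merged exons, Smchd1 was at 13.6 and Lrif1 at 2.84 CPM per kilobase and both kept the last places, while Smc1a moved ahead of Smc2 and Smc6 ahead of Smc5.

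The sequences just upstream of the start of Smchd1 and of the cohesin core genes are shown because deletion of exon 4 leaves the first intact and because the last pair moved together between lines. The RefSeq promoter set used here holds 8 of the 9 genes on GRCm38.p6 (9 entries, since Lrif1 has a pair of starts), and Smc4 has no entry in it. The Smc5 entry (minus strand, chr19:23272600-23272849, 4 CpG) lies inside the annotated gene, below its outermost start. The 250 bases before each start are printed 5′ to 3′ along the gene, with capitals for matches to the GC box GGGCGG or the CCAAT box CCAAT on either strand.
Smchd1, minus strand, chr17:71475344-71475593: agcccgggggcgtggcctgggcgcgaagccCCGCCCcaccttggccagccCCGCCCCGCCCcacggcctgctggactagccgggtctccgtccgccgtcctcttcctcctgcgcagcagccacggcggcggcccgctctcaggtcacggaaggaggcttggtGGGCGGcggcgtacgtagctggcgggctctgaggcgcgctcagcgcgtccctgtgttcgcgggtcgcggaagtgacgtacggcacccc
Smc1a, plus strand, chrX:152016178-152016427: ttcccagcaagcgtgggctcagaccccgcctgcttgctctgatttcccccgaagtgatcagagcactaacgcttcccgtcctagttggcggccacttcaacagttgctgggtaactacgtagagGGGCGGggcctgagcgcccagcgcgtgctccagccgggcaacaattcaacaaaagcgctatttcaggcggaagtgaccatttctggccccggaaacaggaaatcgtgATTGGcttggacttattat
Smc3, plus strand, chr19:53600146-53600395: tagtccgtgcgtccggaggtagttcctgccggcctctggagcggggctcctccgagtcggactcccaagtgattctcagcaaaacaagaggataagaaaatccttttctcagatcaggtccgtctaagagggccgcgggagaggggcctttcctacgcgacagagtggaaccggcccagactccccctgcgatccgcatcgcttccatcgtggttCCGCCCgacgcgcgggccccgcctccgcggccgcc
The Smchd1 stretch is 75.6% G + C with 33 CpG dinucleotides, more than 96.0% of the 32851 mouse promoters in the same set, whose median is 6. Smc3 holds 26 CpG and Smc1a holds 16.

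Over the 9 entries, 7 hold GGGCGG on either strand, beside 32.7% of all promoters, and 3 hold CCAAT, beside 33.8%. The ETS motif ACTTCCGG occurs in 1 entry, the downstream start of Lrif1, beside 2.88% of all promoters. The E2F motif GCGGGAA (3.82% of all promoters), the NRF1 motif GCATGCGC (2.26%) and the E-box CACGTG (6.02%) occur in 0 of the 9. These matches describe the letters of the windows and say nothing of binding.

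Other genes of the same complexes were taken from lists. The other cohesin subunits had 0 of 6 genes tested with an unadjusted p-value under 0.05 and a median log2 fold change of 0.10 (0.066 without Smchd1 matΔ line 3). Stag1, a cohesin subunit that helps to hold the ring on DNA, was counted at 124, 129 and 117 CPM in the Smchd1 wt lines and at 121, 143 and 180 CPM in the Smchd1 matΔ lines. Its paralogue Stag2 was at 87.8 to 116 CPM and at 86.7 to 107 CPM, with a log2 fold change of -0.06. Neither gene separated the genotypes, and without Smchd1 matΔ line 3 the log2 fold changes were 0.10 for Stag1 and -0.16 for Stag2.

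Factors that load, acetylate or release cohesin had 0 of 11 genes under 0.05 and a median of 0.02 (-0.014 without Smchd1 matΔ line 3). Wapl, which releases cohesin from DNA, was at 278 to 294 CPM in the Smchd1 wt lines and at 298 to 380 CPM in the Smchd1 matΔ lines (log2 fold change 0.21, edgeR adjusted p = 0.992). Esco2, an acetyltransferase of SMC3, was at 218 to 242 CPM and at 190 to 215 CPM (log2 fold change -0.15, edgeR adjusted p = 0.992). For these 2 of the 11 genes the groups did not overlap, in opposite directions. Over all genes tested the groups did not overlap in 4.70% that were higher and 4.68% that were lower. The log2 fold changes were 0.11 for Wapl and -0.18 for Esco2 without Smchd1 matΔ line 3.

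Non-SMC subunits of condensin I and II had 0 of 6 genes under 0.05, with log2 fold changes from -0.07 (Ncapg, 196 to 201 CPM in Smchd1 wt and 177 to 198 CPM in Smchd1 matΔ lines) to 0.10 (Ncaph, 84.9 to 86.3 CPM and 88.0 to 96.8 CPM). Their summed level was 1071 to 1126 CPM in Smchd1 wt and 1074 to 1111 CPM in Smchd1 matΔ lines. By this sum, line 3 of Smchd1 matΔ was not set apart as it was by Smc2 and Smc4. Taken singly, it was the highest line for Ncaph, Ncapd2 (340 CPM) and Ncapg2 (120 CPM) and the lowest for Ncaph2 (242 CPM). For Ncapg and Ncapd3 it was neither. Partners of SMC5 and SMC6 had 0 of 7 genes under 0.05 and a median of 0.01. Among them Nsmce4a, a subunit of the complex, was at 163 to 188 CPM in Smchd1 wt and 140 to 161 CPM in Smchd1 matΔ lines (log2 fold change -0.20, edgeR adjusted p = 0.992), and Slf2, which brings the complex to DNA damage, was at 86.6 to 97.2 CPM and 94.7 to 121 CPM. The groups overlapped for Slf2 and not for Nsmce4a, and without Smchd1 matΔ line 3 the log2 fold changes were 0.10 and -0.15. Of the 7 genes, 1 lay wholly below the controls and 1 wholly above, beside 4.68% and 4.70% of all genes tested.

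Heterochromatin factors that include the HP1 genes had 0 of 10 genes under 0.05 and a median of 0.05 (-0.028 without Smchd1 matΔ line 3). Trim28, the corepressor of KRAB zinc finger proteins, was at 1205 to 1406 CPM in Smchd1 wt and 1055 to 1420 CPM in Smchd1 matΔ lines, and the chromatin remodeller Atrx was at 358 to 389 CPM and 356 to 450 CPM. Both overlapped, and the log2 fold change of Trim28, -0.08 over all lines, was 0.028 without Smchd1 matΔ line 3. The Morc genes, which encode the other nuclear GHKL ATPases examined, had 0 of 5 genes under 0.05 and a median of 0.07 (-0.026 without Smchd1 matΔ line 3). Morc4 was at 4.36 to 6.40 CPM and 5.92 to 9.57 CPM, and Morc2b was at most at 0.315 CPM in any line.

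Other insulator and loop factors had 0 of 7 genes under 0.05 and a median of 0.15 (0.028 without Smchd1 matΔ line 3). The zinc finger factor Yy1 was at 98.8 to 108 CPM in Smchd1 wt and 83.1 to 102 CPM in Smchd1 matΔ lines, and Adnp, which competes with CTCF at some sites, was at 136 to 164 CPM and 162 to 203 CPM. Cell cycle genes had 0 of 20 genes under 0.05 and a median of -0.06, with 14 estimates negative and 6 positive. In 4 of the 20 (Ccnb1, Ccnb2, Ccna2 and Cdk1) all Smchd1 matΔ lines lay below the controls, beside 4.68% of all genes tested. These 4 encode cyclins of late cell cycle phases and their kinase, and Smchd1 matΔ line 3 was the lowest of the 6 lines for each. Without that line the log2 fold changes of Ccnb2, Ccna2 and Cdk1 were -0.085, -0.045 and -0.11. The groups overlapped for Plk1, Aurka, Aurkb, Bub1, Bub1b and Cdc20 of the same list. Their log2 fold changes over all lines were 0.0041, 0.027, -0.018, 0.012, -0.00077 and -0.24. Among the listed genes, Mki67, a proliferation marker, was at 259 to 283 CPM in Smchd1 wt lines and at 272, 302 and 526 CPM in the Smchd1 matΔ lines, whereas the mitotic cyclin Ccnb1 was at 325 to 342 CPM and at 313, 295 and 248 CPM. Their log2 fold changes were 0.44 and -0.23, and 0.088 and -0.14 without Smchd1 matΔ line 3, where 1 of the 20 (Ccnd1, log2 fold change -0.26) had an unadjusted p-value under 0.05 (edgeR, 0.013, adjusted 0.960). Of all 18570 genes tested in that fit, 228 were lower with such a p-value. The summed level of the 20 genes was 6398 to 6918 CPM in Smchd1 wt and 6238 to 6745 CPM in Smchd1 matΔ lines, and the part of the cell cycle in the levels of the Smc genes was not tested.

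The 9 genes were also read in the 45 count columns named for a differentiation time course from mESCs towards neuromesodermal progenitors, sequenced with single-end reads. The names cover both genotypes and days from 0 (medium with LIF) to 4. During these days FGF, a GSK3 inhibitor and GDF11 were added in turn. The columns are repeated days and replicates of few lines, by their labels mostly line 1 of each genotype, and are not independent lines. The paper instead describes an even split of technical replicates over a pair of lines for most days. For only 7 of these 45 columns did the best match over 33 factor genes, by correlation with the log2 RPKM columns, carry an identical name. A best match to another replicate of the same day and genotype counted as a different name. The check therefore cannot tell whether days or genotypes are misnamed, and neither was compared in these columns. One column, named for Smchd1 matΔ day 4 line 1 replicate 1, had 8254575 counts on 8 of 22 chromosomes, and 11 autosomes had 0 counts in it. On chromosome 8 its counts ended with a gene that starts at 94214564, before the position of Ctcf. There 6 of the 9 genes (Smchd1, Smc1a, Smc3, Smc5, Smc6 and Ctcf) are listed at 0, and all 6 lie on chromosomes or stretches without a count. These zeros are therefore no measure of expression, and the column was left out, which left 44.

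Over the 44 columns, in CPM of the library total, Smchd1 ranged from 48.2 to 280 with a median of 136, beside 64.7 to 127 in the 6 lines in 2i + LIF. It was above the highest of those lines in 26 columns and below the lowest in 3. Lrif1 ranged from 4.24 to 78.2 with a median of 32.7, beside 10.5 to 15.6 in 2i + LIF, and was above the highest of those lines in 39 of 44 columns. It varied most of the 9 genes, with a highest value 18.5 times the lowest.

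Smc1a had a median of 185 CPM and was below the lowest 2i + LIF line (220 CPM) in 37 of 44 columns and above the highest in 0. Smc4 had a median of 429 CPM and was above the highest 2i + LIF line (407 CPM) in 26 of 44 columns. Smc2, Smc3, Smc5, Smc6 and Ctcf had medians of 286, 306, 161, 196 and 194 CPM, and each lay within its 2i + LIF range in 18 to 24 columns. For every Smc gene and Ctcf the highest 2i + LIF line was Smchd1 matΔ line 3, so these ranges rest on that library. The next highest 2i + LIF lines were at 301 (Smc2), 340 (Smc3), 353 (Smc4), 187 (Smc5), 218 (Smc6) and 192 CPM (Ctcf). With these as upper limits, fewer columns would lie within the ranges and more above them, save for Smc1a. Medium, read layout and day differ between the 2 sets of libraries, and the columns repeat few lines, so these levels are set side by side with no test.

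**Figure D5:**
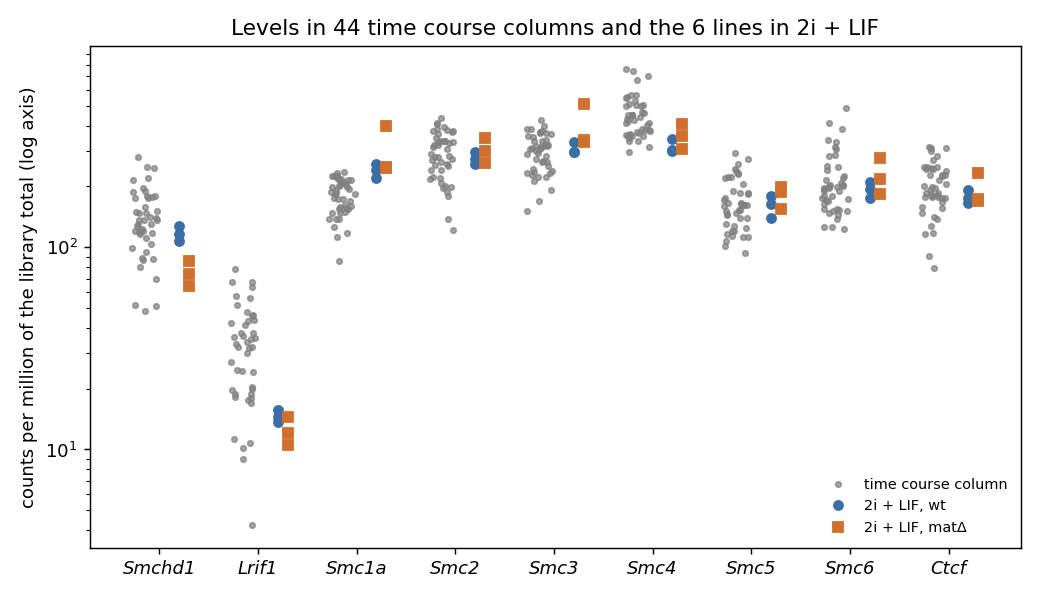
CPM of the library total (log axis) of each of the 9 genes in the 44 time course columns with counts on all autosomes (grey) and in the 2i + LIF lines of Smchd1 wt (blue circles) and Smchd1 matΔ (orange squares). Lrif1 is above the 2i + LIF lines in 39 of the 44 grey points and Smc1a is above them in 0.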

How the data were processed

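RNA was measured in 6 mESC lines in 2i + LIF and 45 time course libraries, grouped by the sample labels. The authors trimmed reads with Trim Galore 0.4.4, mapped them to GRCm38.p6 with HISAT2 2.0.5 and deposited raw counts per gene from SeqMonk, with no normalization. The deposited log2 RPKM values were used only to check column names. Counts of the 6 lines were scaled and tested here with edgeR 4.0.16 in R 4.3.3 (TMM, default expression filter, quasi-likelihood test, Benjamini-Hochberg adjustment over 17696 genes at 0.05), after a check on simulated counts. Exon lengths came from GENCODE on GRCm38, and Python 3.11.15 with scipy 1.17.1 gave exact permutation tests. The 9 genes and all lists were chosen with earlier results of these data known. Named were the 9 genes, and from each list of complexes or cell cycle genes the gene with the lowest p-value in each direction, and the 3 genes whose pattern was most like that of Smchd1 and of Lrif1. Klf4, Tbx3, Ccnb2, Ccna2, Cdk1 and Ccnd1 were named after their values were seen. So were Plk1, Aurka, Aurkb, Bub1, Bub1b, Cdc20, Ncapd2, Ncapg2, Ncaph2 and Ncapd3. Deviations of same-numbered lines from their group means correlated (0.165, 0.334 and 0.383), although line 1 of Smchd1 wt correlated more with line 2 of Smchd1 matΔ (0.239) and line 2 of Smchd1 wt also with line 1 of Smchd1 matΔ (0.123), so a fit with line number as a replicate block was made as an alternative. No label says that a number links lines. Nothing here separates the alleles.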

Additional observations from a re-analysis of the deposited data

How the results depend on the processing

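Over 14 alternatives (3 scalings, 2 filters, edgeR's exact test, DESeq2 1.42.0, the replicate block and 6 fits that each left out a line), Smchd1 kept its direction in all 14. Its log2 fold change was -0.78 to -0.52 when a line was left out and -0.65 to -0.63 otherwise, with adjusted p-values of at least 0.542. With line number as a replicate block it was -0.64 (edgeR adjusted p = 0.773), and the block changed no call. Relative to the 6 Smc genes, a measure added after seeing the data, it was -0.87. The one reversal was Ctcf, which ranged from -0.070 (without Smchd1 matΔ line 3) to 0.24 (without Smchd1 matΔ line 1). Genes past the adjusted threshold numbered 0, with 397 at an unadjusted p-value under 0.05. DESeq2 also called 0, and edgeR's exact test called 2, neither of them among the 9 genes. The 397 became 730 under the replicate block and 231 to 639 when a line was left out (231 without Smchd1 wt line 3, 248 without Smchd1 matΔ line 2, 639 without Smchd1 matΔ line 1). The cause was not tested. Levels per kilobase were higher with the longest transcript, which is shorter than the merged exons. Lrif1 rests on the fewest counts, and every gene on 3 lines per genotype. Of the 44 time course columns, 31 held at least 5000000 counts (a limit added after seeing the data), and over these the medians of Smchd1 and Lrif1 were 131 and 27.1 CPM.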

Other observations

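The genes whose levels followed those of Smchd1 most closely over the 6 lines in 2i + LIF were sought among 10986 genes with a mean of at least 5 CPM. Sumf1, which encodes an enzyme that activates sulfatases, had the highest Pearson r of log2 CPM (0.993, n = 6 lines), at 21.4, 22.3 and 22.4 CPM in Smchd1 wt and 19.0, 19.6 and 20.9 CPM in Smchd1 matΔ lines. Fech, the last enzyme of haem synthesis, followed with an r of 0.982, and Ifnar1, a subunit of the type I interferon receptor, with an r of 0.979. Their log2 fold changes were -0.15, -0.12 and -0.10, smaller than that of Smchd1. Without Smchd1 matΔ line 3 the values of r for the same genes were 0.994, 0.985 and 0.981. These genes were picked over all 6 lines and not ranked again, so this is no separate check. In all, 32 genes had an r above 0.9 over the 6 lines.

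For Lrif1, the closest were Slc7a3, a transporter of cationic amino acids (r = 0.988), Pdhb, a subunit of pyruvate dehydrogenase (r = 0.981), and Nsun2, an RNA cytosine methyltransferase (r = 0.976). Slc7a3 was at 115, 107 and 96.9 CPM in Smchd1 wt and 100.5, 72.6 and 64.6 CPM in Smchd1 matΔ lines, and 118 genes had an r above 0.9. Without Smchd1 matΔ line 3 the 3 values of r were 0.976, 0.961 and 0.956, again for genes picked over all 6 lines. These correlations pool both genotypes, rest on 6 libraries that share depth and length differences, and are a description without a test.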
